A study of Rattus norvegicus with 2 samples.

Results

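The genes described here are 9 of the 32623 genes listed for rat carotid artery cells, namely Rgs5, Higd1b, Kcnj8, Abcc9, Npy1r, Ptgir, Sncg, C1qtnf1 and Rbm24. They were chosen by their UMI counts in these same libraries, in the few cells with Npy1r UMIs (unique molecular identifiers, each counting a captured RNA molecule) and in the gates set out below, and by their use as genes of microvascular mural cells. The values that chose them are therefore given as a description. All 9 were listed, 8 had a UMI in the kept cells of the control group and 9 in those of the case group. Npy1r had 94 UMIs in 26 cells of the injured artery against 3 in the uninjured one, and Sncg, C1qtnf1 and Rbm24 were far higher in those with 2 or more Npy1r UMIs than in other smooth muscle gated cells. Rgs5 was found mainly in endothelial gated cells, and Higd1b was almost absent. Kcnj8, Rbm24 and most Npy1r UMIs sat in the smooth muscle gate, and Abcc9 in the smooth muscle and fibroblast gates. No gate was set for pericytes, so whether the name microvascular mural cell genes describes the set as a whole was not tested.

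The study asked how the cells of the artery wall differ after balloon injury, a rat model of in-stent restenosis. The control group was 1 library from the uninjured left carotid arteries of 2 SD rats, and the case group was 1 library from the balloon-injured right carotid arteries of the same 2 rats. The rats were male by the study's methods and 12 weeks old by the labels. The methods give a younger age for the rats used, to which the 28 days from injury to collection are to be added. The arteries were taken 28 days after injury, digested with enzymes, pooled within a group and run on the 10x Genomics platform. Pooling leaves no way to separate the rats, so every value below rests on 1 library per group and no replicate check was possible.

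The deposited counts held 3321 barcodes for the control group, at a median depth of 5981 UMIs, and 5656 for the case group, at a median depth of 4778. Of these, 2742 control cells and 4930 case cells passed the filter, in both groups more than the study kept. A total of 21 barcode sequences occurred in both libraries, and 0 of them marked a cell with an Npy1r UMI. Cells were placed in gates by marker genes that include no member. The smooth muscle gate needed at least 50 marker UMIs per 10000 (Acta2, Tagln, Cald1, Myl9, Myh11 and Cnn1) and held 1495 control and 2642 case cells. The fibroblast gate needed 100 per 10000 and held 740 and 1450 cells, the endothelial gate 51 and 201, the macrophage gate 42 and 98, and the Schwann gate 15 and 39. Levels below are given as CPM, that is, counts per 1000000 UMIs after adding up all cells in a gate, with exact 95% Poisson intervals, and ratios carry exact 95% binomial intervals. Both cover counting error only, not the spread between cells or between animals.

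Mural cells, the pericytes and smooth muscle cells that wrap small vessels, set vessel tone and share signalling genes such as the regulator of G-protein signalling Rgs5 and the vascular ATP-sensitive potassium channel, which is built from the pore subunit Kcnj8 and the sulfonylurea receptor subunit Abcc9. Npy1r is a receptor of neuropeptide Y, a sympathetic cotransmitter that constricts arteries, and Ptgir is the prostacyclin receptor, which relaxes smooth muscle. Sncg is gamma-synuclein, best known from peripheral neurons, C1qtnf1 is a secreted protein of the C1q and TNF related family, Rbm24 is an RNA-binding splicing factor of muscle, and Higd1b belongs to a family of mitochondrial inner membrane proteins.

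The promoters of Npy1r and of 3 members found beside it in the same cells are shown, since the results below turn on these genes, as the 250 bases before the RefSeq gene start in GRCr8, a later build than the Rnor_6.0 named in the submitters' processing notes. Capitals mark matches on either strand of TGGGAA (core of the RBPJ site of Notch signalling), CATTCC (TEAD), GGGCGG (SP), TATAAA and the CArG box. The windows are chr16:27813388-27813637 (minus strand) for Npy1r, chr16:9711337-9711586 (minus) for Sncg, chr17:18493629-18493878 (minus) for Rbm24 and chr13:84380827-84381076 (plus) for Rgs5.
Npy1r: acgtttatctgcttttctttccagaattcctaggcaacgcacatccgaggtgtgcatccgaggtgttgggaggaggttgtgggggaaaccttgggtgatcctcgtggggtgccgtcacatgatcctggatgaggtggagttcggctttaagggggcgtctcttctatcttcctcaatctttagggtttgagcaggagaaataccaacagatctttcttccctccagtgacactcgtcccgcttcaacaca
Sncg: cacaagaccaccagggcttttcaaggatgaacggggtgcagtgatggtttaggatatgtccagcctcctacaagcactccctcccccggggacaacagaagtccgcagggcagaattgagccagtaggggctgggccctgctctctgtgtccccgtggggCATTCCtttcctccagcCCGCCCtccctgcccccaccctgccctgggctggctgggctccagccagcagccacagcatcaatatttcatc
Rbm24: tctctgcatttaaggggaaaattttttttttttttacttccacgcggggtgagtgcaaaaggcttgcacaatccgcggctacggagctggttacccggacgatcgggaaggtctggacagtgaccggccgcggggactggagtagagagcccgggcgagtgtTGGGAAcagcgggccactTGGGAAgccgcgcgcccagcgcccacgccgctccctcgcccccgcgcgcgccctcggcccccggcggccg
Rgs5: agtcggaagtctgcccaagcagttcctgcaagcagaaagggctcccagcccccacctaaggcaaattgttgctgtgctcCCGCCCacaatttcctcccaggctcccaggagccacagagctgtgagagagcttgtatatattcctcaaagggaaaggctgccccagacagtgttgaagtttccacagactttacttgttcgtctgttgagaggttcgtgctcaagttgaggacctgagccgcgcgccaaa

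Npy1r and Sncg both lie on chromosome 16 in that build. The Npy1r window held none of the 5 motifs. Rbm24 held TGGGAA at 2 places, 88 and 70 bases before the start, a motif present in 22.1% of the 33469 promoters. Sncg held CATTCC, present in 12.1%, and GGGCGG, present in 30.5%, and Rgs5 held GGGCGG. The CArG box, the site of serum response factor, was in 1.5% of promoters and in none of the 7 members with an entry, and TATAAA, in 12.9%, was in none either. RefSeq entries for Higd1b and C1qtnf1 were not among those used here. These are matches of letters and show no binding.

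Genes used to mark pericytes were looked at first. Higd1b (ENSRNOG00000002814) had 0 UMIs in the control cells and 1 UMI in the case cells, in a fibroblast gated cell. In the control smooth muscle gate a count of 0 allows up to 0.227 CPM. Among 12 other mural cell genes, Ndufa4l2 and Vtn, both used to mark pericytes, had 0 UMIs in the smooth muscle gated cells of the case group, whereas all 12 had a UMI in that gate of the control group and in the fibroblast gates of both. Summed over those 12 genes, the smooth muscle gate held 827 CPM in control and 834 CPM in case, and the fibroblast gate 361 and 351 CPM. Cells of no gate held 752 CPM of them in control and 528 CPM in case. No gate was set for pericytes, so these values cannot show whether the libraries held any. The members are described by where they were found.

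**Figure D1:**
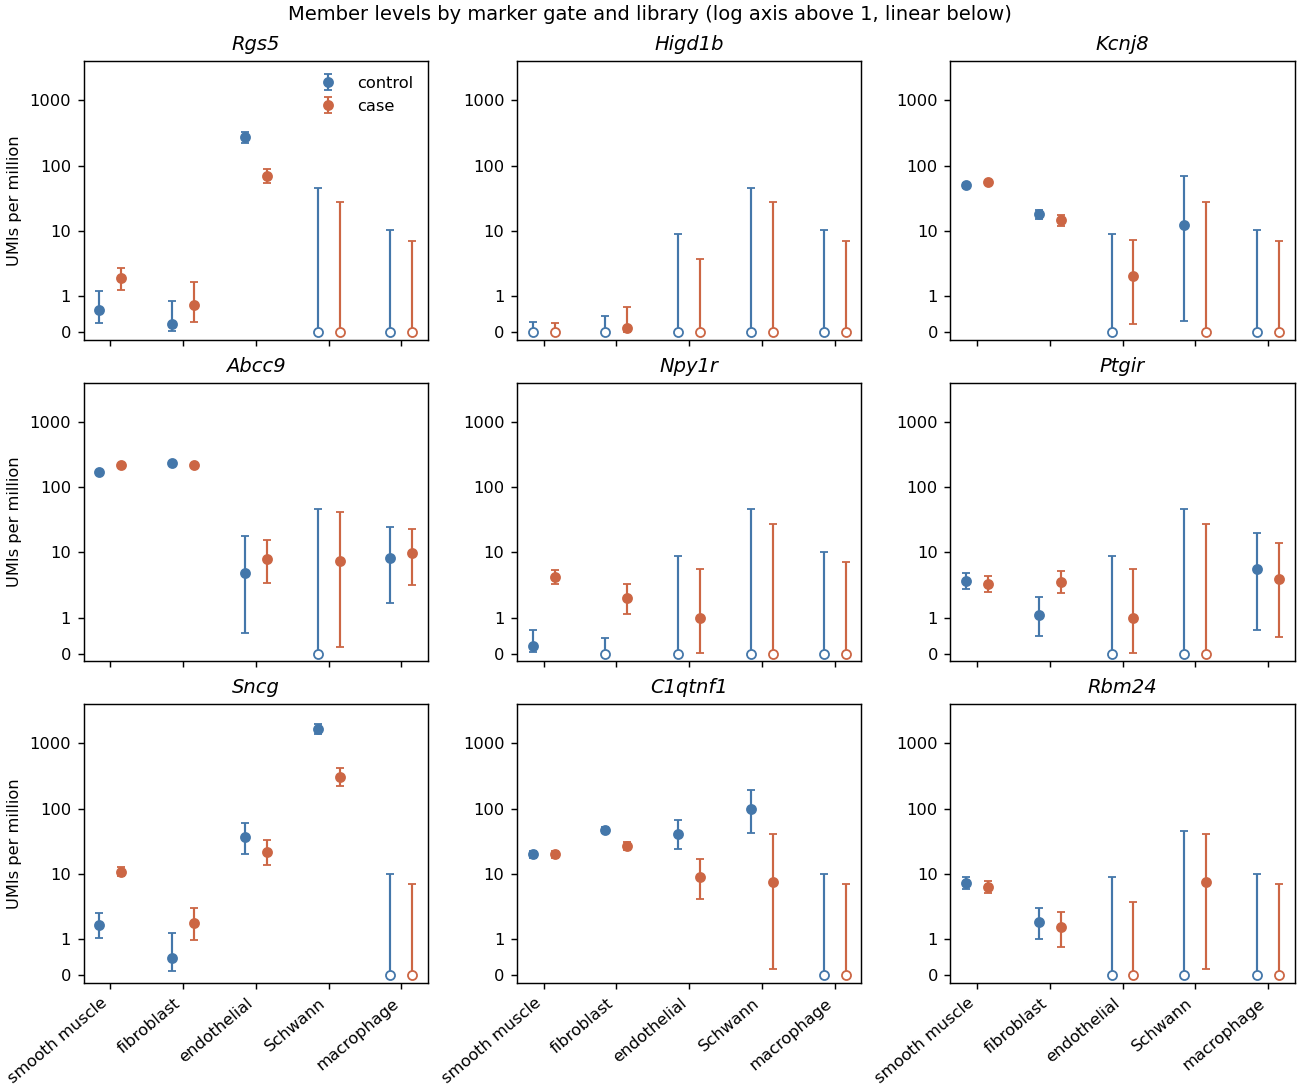
Level of each member (CPM, log axis above 1 and linear below) in 5 marker gates of the control library (blue) and the case library (orange), with exact 95% Poisson intervals. Open points are counts of 0. Rgs5 stands highest in the endothelial gate, at 270 CPM in control and 70.1 CPM in case, Kcnj8 in the smooth muscle gate, Sncg in the Schwann gate, and Higd1b lies at or near 0 in every gate.

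The subunits of the potassium channel were the most widely detected members. Abcc9 (ENSRNOG00000036960) had 4440 UMIs in 1486 control cells and 5474 UMIs in 2605 case cells. Its level was 169 CPM (162 to 176) in control and 220 CPM (212 to 227) in case smooth muscle gated cells. In fibroblast gated cells it was 234 CPM (224 to 245) in control and 217 CPM (207 to 228) in case. Abcc9 thus belonged to both large gates. In control the fibroblast level lay above the smooth muscle level, and in case their intervals overlapped. Macrophages, which should lack the channel, held 8.27 CPM (1.70 to 24.2) in control and 9.65 CPM (3.13 to 22.5) in case, and endothelial gated cells 4.86 and 8.01 CPM.

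Kcnj8 (ENSRNOG00000013463) was detected in fewer cells, 567 in control and 744 in case, and sat mainly in smooth muscle. The smooth muscle gate held 76.2% of its 863 control UMIs and 81.7% of its 1012 case UMIs. Its level there was 49.8 CPM (46.1 to 53.7) in control and 55.2 CPM (51.5 to 59.1) in case. The fibroblast gate was lower, at 17.9 CPM (15.2 to 21.1) and 14.5 CPM (12.0 to 17.5), with no overlap of these intervals with those of smooth muscle. Summed smooth muscle marker levels moved with the gate, at 845 CPM in control and 853 CPM in case fibroblasts against 25812 and 20613 CPM in smooth muscle, and the part of carried-over RNA in the fibroblast value was not tested. Macrophages had 0 Kcnj8 UMIs in both libraries, which allows up to 8.27 CPM in control and 5.79 CPM in case.

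Both subunits were often found in the same cell. Of 418 control smooth muscle gated cells with a Kcnj8 UMI, 80.6% (76.5 to 84.3) also had an Abcc9 UMI, against 45.0% (42.0 to 48.1) of the 1077 without. These cells differed in depth, with medians of 13475 and 4845 UMIs. In the case group, where the medians were closer at 6065 and 5210 UMIs, the shares were 68.9% (65.0 to 72.6) and 59.8% (57.6 to 61.9). The 2 genes are neighbours on chromosome 4 in the RefSeq annotation of GRCr8.

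Between the libraries, Abcc9 in the smooth muscle gate was higher in case by a log2 ratio of 0.38 (0.30 to 0.46), beside a median of -0.12 over the 4758 genes whose 2 libraries averaged 20 CPM or more there. After thinning to 1000 UMIs, which left out shallower cells and kept 1142 of 1495 control and 2623 of 2642 case cells of the gate, 14.7% (12.7 to 16.9) of control and 19.0% (17.5 to 20.5) of case cells kept an Abcc9 UMI, while as sequenced 822 of 1495 and 1633 of 2642 cells had one at median depths of 9879 and 5403 UMIs. In macrophages the thinned shares were 2.38% and 1.03%. In fibroblasts the Abcc9 ratio was -0.11 (-0.20 to -0.01), beside a median of -0.07. Kcnj8 gave 0.15 (-0.00 to 0.30) in smooth muscle and -0.30 (-0.67 to 0.06) in fibroblasts, both with intervals that reached 0.

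Rgs5 (ENSRNOG00000002730), which speeds up the switching off of G-protein signals, was an endothelial gene in these libraries. Endothelial gated cells were 51 of 2742 control cells and 201 of 4930 case cells, yet they held 83.5% of the 133 control UMIs and 51.1% of the 137 case UMIs. The level in that gate was 270 CPM (222 to 325) in control and 70.1 CPM (54.6 to 88.5) in case. In smooth muscle it was 0.605 CPM (0.261 to 1.19) and 1.87 CPM (1.24 to 2.70), and in fibroblasts 0.241 and 0.759 CPM. Macrophages and Schwann cells had 0 UMIs in both libraries. Cells of no gate held 7.31 CPM (1.51 to 21.3) in control and 22.2 CPM (13.9 to 33.7) in case. Mixed cells, with markers of a rarer type beside those of another gate, held 50.5 and 21.7 CPM. The endothelial gate was therefore first by a wide margin, and smooth muscle and fibroblasts were not separated beyond their intervals in either group.

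Within the endothelial gate Rgs5 was lower in case by a log2 ratio of -1.94 (-2.40 to -1.5). Of the 5020 genes averaging 20 CPM or more in this gate, 12.7% were at least 2-fold lower in case with an interval that excluded no difference, 7.87% were so higher and 20.6% in either direction. A 2-fold difference is thus common there, but the share of genes with a drop as large as that of Rgs5 was not counted. An Rgs5 UMI was found in 26 of 51 control cells and in 40 of 201 case cells, at median depths of 7426 and 4293 UMIs. Thinned to 2000 UMIs, the shares were 41.2% and 12.5%. The highest control cell held 19 Rgs5 UMIs and the highest case cell 8, and without them the levels were 229 and 63.1 CPM. The kinds of endothelial cell also differed: 11 of 51 control and 89 of 201 case cells had a UMI of Plvap or Emcn, genes of capillary and venous endothelium. Among cells without these 2 genes Rgs5 was 288 CPM (232 to 352) in control and 95.1 CPM (71.9 to 124) in case, and among cells with either it was 201 CPM (117 to 322) and 34.1 CPM (18.7 to 57.3). The level in cells with either gene rests in control on 17 UMIs in 3 of 11 cells, and without the highest cell of each library it was 123 CPM in control and 20.4 CPM in case. The part of the mix of endothelial cells in the lower level was not tested.

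Across 14 combinations of gate and library with at least 20 cells, the 5 genes with the pattern most like Rgs5 among 10535 were Nsg1, Isl1, Podxl, Lsr and Nos3, with Pearson correlations of 0.99, 0.99, 0.99, 0.98 and 0.98 on log2(CPM + 10). Nos3 is the endothelial nitric oxide synthase. These points share 2 libraries and are a description. Of 9 listed genes of the RGS family, 8 reached 20 CPM in a gate of at least 50 cells. Rgs2 and Rgs4, which like Rgs5 act on Gq signals of vasoconstrictor receptors, stood in the smooth muscle gate at 72.1 and 59.7 CPM in control and 78.2 and 51.1 CPM in case. Rgs2 was not particular to that gate. In control and case it was 85.4 and 65.4 CPM in fibroblasts, and 87.5 and 79.1 CPM in endothelial gated cells.

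C1qtnf1 (ENSRNOG00000003259) was shared by several gates and was lower in the case group in fibroblasts and endothelial gated cells. Its level in fibroblasts was 46.7 CPM (42.2 to 51.6) in control and 27.1 CPM (23.6 to 30.9) in case, a log2 ratio of -0.79 (-1.04 to -0.54). In the endothelial gate it was 41.3 CPM (24.1 to 66.2) and 9.01 CPM (4.12 to 17.1), a ratio of -2.20 (-3.55 to -0.95) that rests on 17 and 9 UMIs. In smooth muscle it was 20.2 CPM (17.9 to 22.8) and 20.1 CPM (17.9 to 22.5), which did not differ beyond counting error. Macrophages had 0 UMIs. Of its family in fibroblasts, C1qtnf2 was 75.3 and 39.1 CPM, C1qtnf5 183 and 103 CPM, and C1qtnf7 48.8 and 22.1 CPM in control and case, whereas C1qtnf3 was 8.79 and 33.4 CPM.

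Ptgir (ENSRNOG00000016756) was sparse, with 63 UMIs in control and 114 in case. The smooth muscle gate held 3.71 CPM (2.74 to 4.90) in control and 3.34 CPM (2.48 to 4.40) in case. The fibroblast gate held 1.08 CPM (0.496 to 2.06) on 9 UMIs and 3.54 CPM (2.35 to 5.12) on 28 UMIs. The smooth muscle and fibroblast intervals did not overlap in control and did overlap in case. Cells of no gate held 0 UMIs in control and 27.3 CPM (18.0 to 39.7) in case. In fibroblasts the log2 ratio of case over control was 1.71 (0.58 to 2.98). The macrophage values of 5.51 CPM on 2 UMIs and 3.86 CPM on 2 UMIs had wide intervals that spanned most of those levels. They rest on too few UMIs to set a background level for Ptgir. The enzymes that make its ligand's precursor were far more readily detected: Ptgs2 stood at 4341 CPM in control and 2896 CPM in case fibroblasts, and Ptgs1 at 112 and 72.1 CPM in smooth muscle.

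Rbm24 (ENSRNOG00000046547) was a smooth muscle gene at a low level, 7.26 CPM (5.88 to 8.87) in control and 6.41 CPM (5.19 to 7.82) in case, with 78.0% and 79.3% of its UMIs in that gate. Fibroblasts held 1.81 CPM (1.01 to 2.98) and 1.52 CPM (0.784 to 2.65). Endothelial gated cells and macrophages had 0 UMIs in both libraries. The Rbm24 values of the 2 libraries did not differ beyond counting error in either gate.

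Sncg (ENSRNOG00000058006) was found in several gates. Schwann cells, the glia of nerve fibres in the wall, held 136 of its 200 control UMIs at 1678 CPM (1408 to 1985) and 41 of its 278 case UMIs at 306 CPM (220 to 415), from 15 and 39 cells. Endothelial gated cells held 36.5 CPM (20.4 to 60.1) and 22.0 CPM (13.8 to 33.3), and macrophages 0. Cells of no gate held 39.0 CPM (22.3 to 63.3) in control and 26.3 CPM (17.2 to 38.5) in case. In smooth muscle Sncg was 1.66 CPM (1.04 to 2.52) in control and 10.9 CPM (9.27 to 12.7) in case, a log2 ratio of 2.71 (2.06 to 3.42). The case smooth muscle gate held 163 of the 278 UMIs, but 73 of these lay in 9 cells with 2 or more Npy1r UMIs and 26 in 1 further cell, and the 2629 cells with no Npy1r UMI stood at 3.82 CPM. Schwann markers summed to 7.57 CPM in control and 9.81 CPM in case smooth muscle. The part of carried-over Schwann cell RNA in the smooth muscle Sncg values was not tested.

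**Figure D2:**
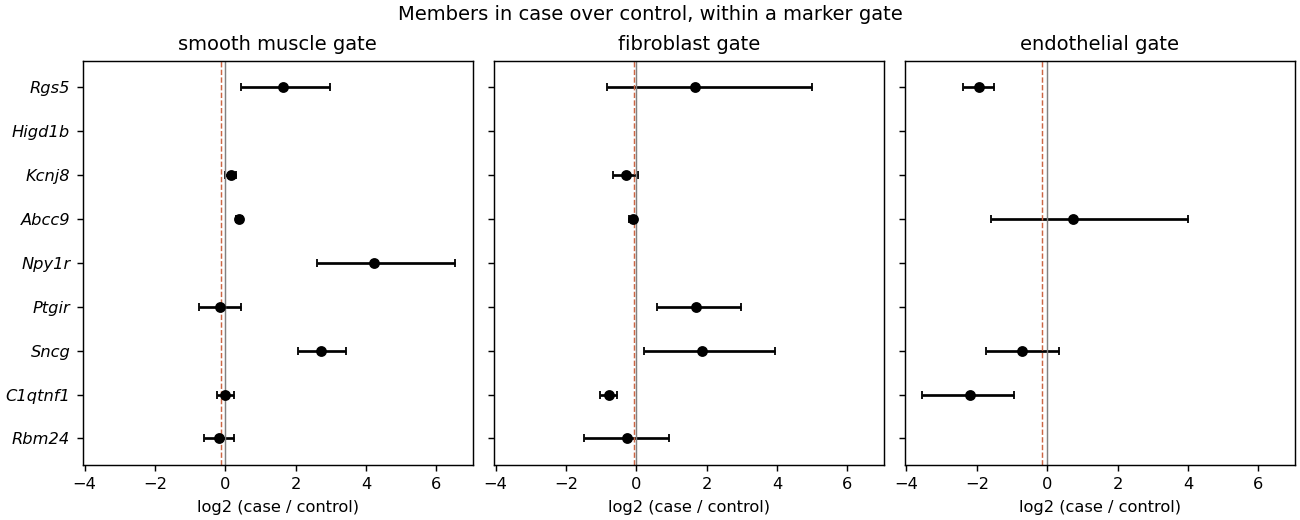
Log2 ratio of case over control for each member within the smooth muscle, fibroblast and endothelial gates, with exact 95% binomial intervals from counts, and the median of all genes as a dashed line. No point is drawn where a count was 0 in either library or no count passed 3. Npy1r and Sncg lie farthest to the right in the smooth muscle gate (4.21 and 2.71), Abcc9 at 0.38, and Rgs5 and C1qtnf1 to the left in the endothelial gate (-1.94 and -2.20).

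Few members reached the level at which 2-fold differences were counted. In smooth muscle 3 members (Kcnj8, Abcc9 and C1qtnf1) reached a mean of 20 CPM and 0 were past 2-fold, where 3.28% of all genes were (1.03% higher and 2.25% lower in case). In fibroblasts 2 members (Abcc9 and C1qtnf1) reached it and 0 were past 2-fold, where 4.25% were (1.65% higher and 2.6% lower). In the endothelial gate Rgs5, Sncg and C1qtnf1 reached it, and Rgs5 and C1qtnf1 were past 2-fold lower, where 12.7% of all genes were lower and 20.6% past 2-fold either way. The members were chosen with these libraries known, so the counts are a description. Of 59 listed relatives of the members, 15 reached 20 CPM in smooth muscle, with 0 past 2-fold higher and 1 lower in case (C1qtnf5). In fibroblasts, again with 15, 1 was higher (C1qtnf3) and 3 were lower (Rgs10, Higd2a and C1qtnf7). In the endothelial gate 14 reached it, with 2 higher (Higd1a and Ednrb) and 2 lower (Rgs10 and C1qtnf5).

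Npy1r (ENSRNOG00000014149) had 3 UMIs in the control group, all in 1 smooth muscle gated cell, and 94 UMIs in 26 cells of the case group. In the case smooth muscle gate its level was 4.20 CPM (3.23 to 5.38), in fibroblasts 2.02 CPM (1.16 to 3.29), and in cells of no gate 13.1 CPM on 13 UMIs. In control it was 0.227 CPM (0.0468 to 0.663) in smooth muscle and 0 in every other gate. Macrophages had 0 Npy1r UMIs in both libraries. As a mean over a gate, Npy1r thus looks like a trace, but its UMIs were packed into few cells.

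The set was read in cells with 2 or more Npy1r UMIs. There were 14 such cells in the case group, 0.284% (0.155 to 0.476) of the kept cells, and 1 in the control group, 0.0365% (0.000923 to 0.203). Thinned to 2000 UMIs, 5 of 4610 case cells still had 2, a share of 0.108% (0.0352 to 0.253), against 0 of 1989 control cells. The control 0 allows a share of up to 0.151%, so the groups were not separated by this rule at equal depth. The 14 case cells had a median of 5474 UMIs, close to the 5400 of the other smooth muscle gated case cells. Of the 14, 9 lay in the smooth muscle gate, 2 in the fibroblast gate and 3 in no gate. Just outside the threshold lay 12 case cells with exactly 1 Npy1r UMI, 4 in the smooth muscle gate, 4 in the fibroblast gate, 1 in both, 1 in the endothelial gate and 2 in no gate, and 0 control cells.

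The other genes of the neuropeptide Y system were sparse. Npy, Npy2r, Npy5r and Ppy had 0 UMIs in the kept cells. Pyy, which encodes peptide YY, a ligand of the same receptor family, had 10 UMIs in control smooth muscle (0.757 CPM, 0.363 to 1.39) and 10 in case (0.667 CPM, 0.320 to 1.23), and 1 in fibroblasts of each library. Npy4r had 1 UMI in case smooth muscle. Dpp4, a peptidase that trims neuropeptide Y, was the sole one of 8 listed genes to reach 20 CPM, at 22.0 CPM (13.8 to 33.3) in case endothelial gated cells.

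Cell by cell, Sncg and C1qtnf1 UMIs recurred beside those of Npy1r. The case cell with the most Npy1r, 13 UMIs, held 30 UMIs of Sncg, 6 of C1qtnf1 and 7 of Rbm24. The next, with 12 Npy1r UMIs, held 16 of Rgs5, 4 of Sncg and 2 of C1qtnf1. The cell with 10 Npy1r UMIs held 8 of Sncg, 15 of C1qtnf1, 9 of Rbm24 and 3 of Abcc9. These 3 and the cell with 9 Npy1r UMIs, which had 8 of Sncg, 9 of C1qtnf1, 4 of Rbm24 and 1 of Ptgir, all lay in the smooth muscle gate. The fibroblast gated cell with 8 Npy1r UMIs held 7 of Sncg and 4 of Rgs5, and the other fibroblast gated cell, with 4, held 2 UMIs of Abcc9 and no other member. The 3 cells of no gate, with 6, 3 and 2 Npy1r UMIs, held 1 or 2 UMIs of Sncg and 1 to 4 of C1qtnf1. Other cells lacked them: the smooth muscle gated case cells of 7363 and 2030 UMIs, with 2 Npy1r UMIs each, held no Sncg, C1qtnf1, Rbm24 or Rgs5. The shallower of these had 20% mitochondrial UMIs, the limit of the filter, and the smooth muscle gated cell with 5 Npy1r UMIs had 18.1%. The single control cell, a deep one of 11808 UMIs, held none of the other 8 members.

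**Figure D3:**
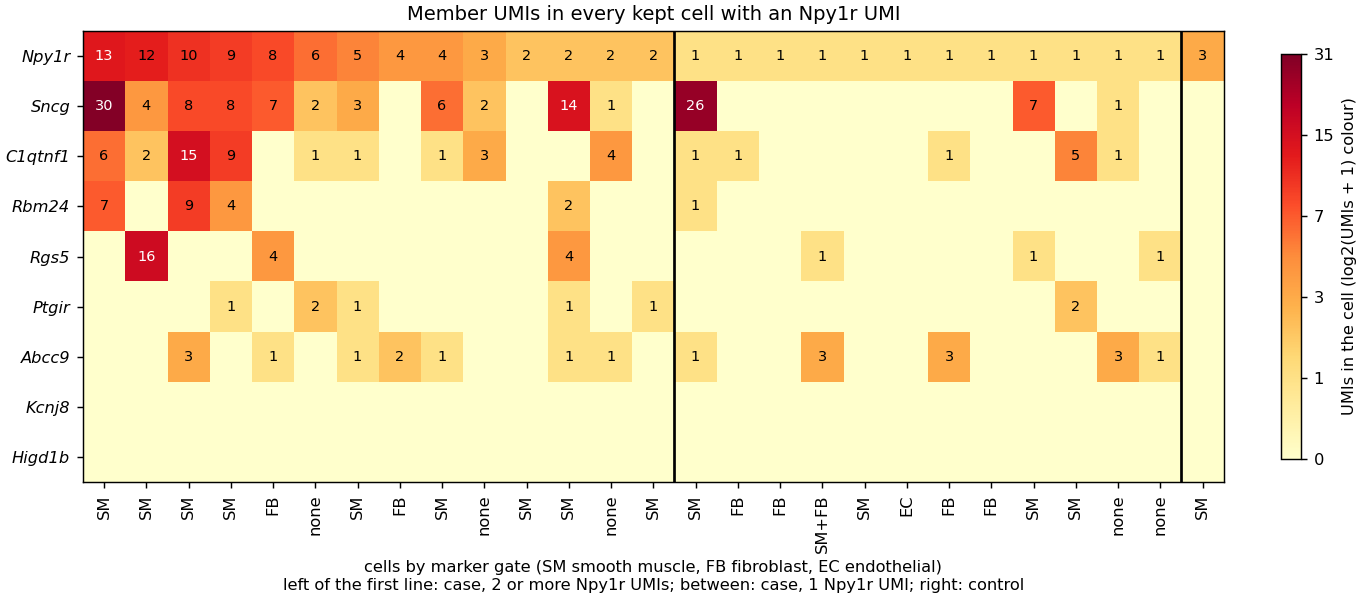
UMIs of each member (rows) in each of the 27 kept cells with an Npy1r UMI (columns), with the count printed where it is above 0 and the colour on a log2(UMIs + 1) scale. Columns left of the first line are the 14 case cells with 2 or more Npy1r UMIs, those between the lines the 12 case cells with 1, and the last is the control cell. Sncg fills 11 of the first 14 columns and C1qtnf1 9, whereas Kcnj8 and Higd1b are empty throughout.

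Summed over the 14 case cells, Sncg had 85 UMIs in 11 cells, or 1026 CPM, against 6.03 CPM in the 2633 other smooth muscle gated case cells, a 170-fold ratio (log2 7.41, 6.97 to 7.86). Without the cell of 30 UMIs the log2 ratio was 6.93. C1qtnf1 had 42 UMIs in 9 cells, 507 CPM against 17.9 CPM, and a 28.3-fold ratio. Rbm24 had 22 UMIs in 4 cells, 266 CPM against 4.96 CPM, and a 53.6-fold ratio. Rgs5 had 24 UMIs in 3 cells, 16 of them in 1 cell, and stood at 290 CPM against 0.536 CPM. Ptgir had 6 UMIs in 5 cells, 72.4 CPM against 3.08 CPM. So 5 members besides Npy1r were past 2-fold higher, beside 13.4% of the 4625 genes averaging 20 CPM or more (21.1% in either direction), and these cells chose the list, so nothing is read from that count. With the 9 cells of the smooth muscle gate alone the number was again 5, beside 12.3% of genes. Kcnj8 was then not called lower, beside 5.45% of genes that were.

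The channel subunits were not among the higher genes. Kcnj8 had 0 UMIs in the 14 cells against 55.4 CPM in the other smooth muscle gated cells, where 0 allows up to 36.2 CPM. The upper end of its log2 interval was -0.31, and it was the member called lower, beside 7.74% of genes. Abcc9 had 10 UMIs in 7 of the cells, 121 CPM against 220 CPM, a log2 ratio of -0.87 (-1.93 to 0.01) that did not exclude 0. At 1000 UMIs a cell, 0 of 14 kept an Abcc9 UMI (0 to 23.2%), an interval that covers the 19.1% (17.6 to 20.6) of the others, while 7 of 14 kept an Sncg UMI against 0.497% (0.265 to 0.849).

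The gate means were then taken without these few cells. Without cells of 2 or more Npy1r UMIs, Rgs5 in smooth muscle was 0.606 CPM in control and 0.536 CPM in case, a log2 ratio of -0.18 (-1.79 to 1.43) in place of 1.63. Sncg was 1.67 and 6.03 CPM, a ratio of 1.85 (1.17 to 2.60) in place of 2.71, and a single further cell with 1 Npy1r UMI held 26 of the remaining 90 case UMIs. Rbm24 was 7.27 and 4.96 CPM, a ratio of -0.55 (-1.01 to -0.10) in place of -0.18 (-0.60 to 0.24). The cells left out were 9 in case and 1 in control, and the members were chosen by their counts in such cells. Lower case levels of Rgs5, Sncg and Rbm24 without them are thus partly built in, and nothing is read from these changes. Within the smooth muscle gate of case, Sncg was 3.82 CPM in the 2629 cells with no Npy1r UMI and 1584 CPM in the 6 with 4 or more, all of which had an Sncg UMI. In the cells between, 2 of the 4 cells with 1 Npy1r UMI held 33 Sncg UMIs, 26 of them in 1 cell, and 1 of the 3 cells with 2 to 3 held 14.

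The 14 cells differed from other smooth muscle gated cells in marker lists as well. Of 12 mural cell genes other than the members, 9 reached 20 CPM, 4 were past 2-fold higher and 1 lower. Of all genes averaging 20 CPM or more, 13.4% were higher and 7.74% lower. With the 9 cells of the smooth muscle gate alone, 7 reached it, 3 were higher and 1 lower, beside 12.3% and 5.45% of genes. Gja4, a gap junction connexin, had 41 UMIs in 9 of the cells and was 21.0-fold higher. Gjc1, another connexin, was 18.1-fold higher on 52 UMIs in 9 cells, and the Notch target Heyl 8.73-fold higher on 20 UMIs in 10 cells. Art3 rested on 4 UMIs, 3 of them in fibroblast gated cells. Cspg4, which encodes the pericyte proteoglycan NG2, was the lower one, with 1 UMI in the cells. Pdgfrb, the platelet-derived growth factor receptor of mural cells, gave a log2 ratio of 0.44 (-0.02 to 0.86), and Notch3 1.64 (-0.66 to 3.21).

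More contractile genes were lower than higher in the 14 cells. Of 10 contractile genes outside the gate, 6 were past 2-fold lower and 1 higher, beside 7.74% and 13.4% of all genes. Their median log2 ratio was -1.25, beside 0.17 over all genes averaging 20 CPM or more. The comparison cells all passed the smooth muscle gate, which 9 of the 14 cells did, so lower contractile genes are partly built in. Itga8, an integrin of smooth muscle, was 471 CPM against 2780 CPM, Tpm2 (a tropomyosin) 1364 against 3301 CPM, and Lmod1 (leiomodin) 181 against 531 CPM. Des, the intermediate filament desmin, was the higher one at 9.68-fold, with 36 UMIs in 12 of the 14 cells. The elastic matrix was lower too, in 5 of 8 genes with Mfap5 higher, as in Bgn (biglycan) at 881 against 3989 CPM and Fbln5 at 48.3 against 497 CPM. Inside the smooth muscle gate alone, the 9 cells had 3 of 10 contractile genes lower and 1 higher, beside 5.45% and 12.3% of all genes. Of 8 elastic matrix genes they had 0 higher and 6 lower, Eln among the lower at 172 against 1623 CPM.

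**Figure D4:**
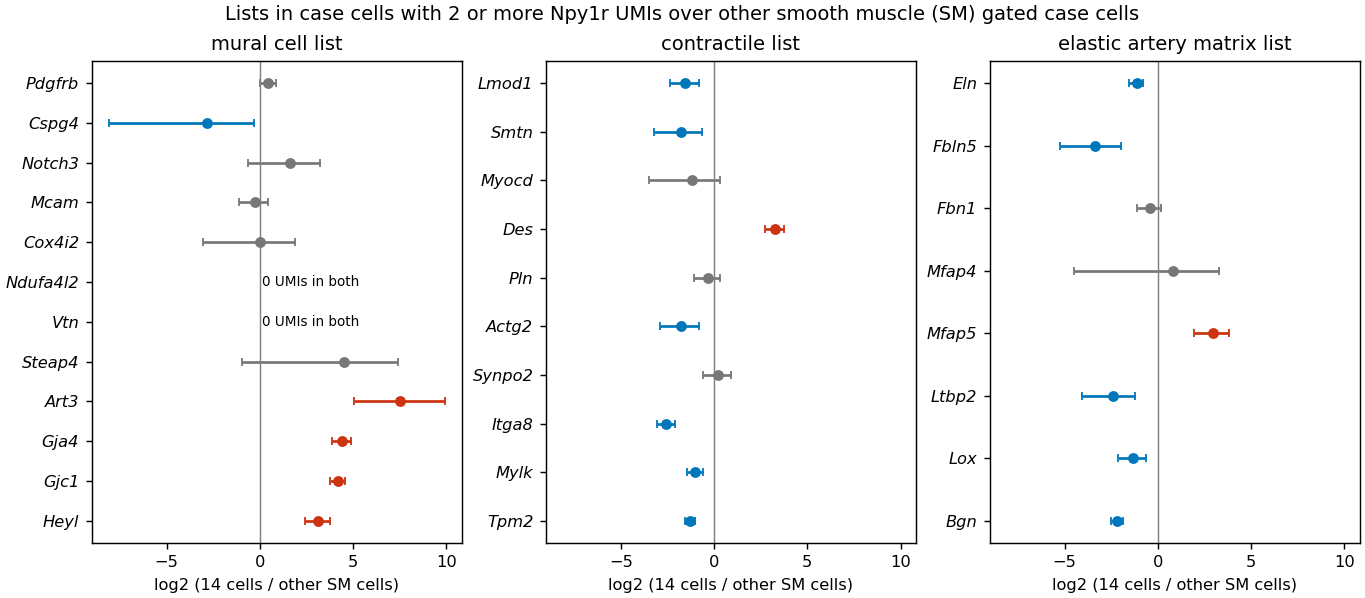
Log2 ratio of each gene of the mural cell, contractile and elastic artery matrix lists in the 14 case cells with 2 or more Npy1r UMIs over the other smooth muscle gated case cells, with exact 95% binomial intervals from counts. Red is at least 2-fold higher and blue at least 2-fold lower with an interval that excludes 0, and grey is neither. Gja4, Gjc1, Heyl, Art3, Des and Mfap5 stand to the right, and 12 genes to the left in blue.

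Markers of other cell types were checked in the same cells. All 7 endothelial markers had 0 UMIs. Macrophage markers had 1 UMI (Mrc1), 12.1 CPM against 13.3 CPM in other smooth muscle. Schwann markers also had 1 UMI (S100b), 12.1 against 9.84 CPM, and such counts are too few to compare levels. Fibroblast markers summed to 14229 against 3217 CPM, through the 2 fibroblast gated cells, which held 498 Col1a1 UMIs against 16 in the 9 smooth muscle gated cells. Within the smooth muscle gate the direction turned: 725 CPM in the 9 cells against 3217 CPM, with 7 of 9 cells at or under 6 fibroblast marker UMIs per 10000 against 35 of 2633 others. That limit was chosen after the values were seen.

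Among 638 genes with at least 20 UMIs in the 14 cells, those of highest ratio included Npy1r, Rgs5, Nefm, Ednrb, Sncg, Adamts4, Nrarp, Igf1 and Thbs1. Adamts4, a protease of aggrecan and versican, had 180 UMIs in 11 cells and was 118-fold higher. Of these UMIs, 44 lay in fibroblast gated cells and 56 in cells of no gate. Inside the smooth muscle gate it was 82.9-fold higher, on 80 UMIs in 6 cells. Nrarp, a Notch feedback gene, had 35 UMIs in 9 cells and was 87.6-fold higher. Ednrb, an endothelin receptor, had 31 UMIs in 5 cells. Nefm rested on 1 cell with all 25 UMIs, and Igf1 on 2 fibroblast gated cells, so these 2 belong to single cells and not to the group. In the control cell with 3 Npy1r UMIs, Nrarp, Ednrb and Sncg had 0 UMIs and Adamts4 had 1. Its own highest ratios, among 112 genes, were Des at 43.0-fold on 36 UMIs, Rrad, Mustn1, Actg2, Crip1, Gadd45a, Nr4a1, Gadd45b, Cited2 and Id1. Des was also higher in the 14 case cells, by the 9.68-fold given above, and so were Mustn1, Crip1 and Nr4a1. Rrad, Actg2, Gadd45a, Gadd45b, Cited2 and Id1 stood lower in the 14 cells than in the other smooth muscle gated case cells. Rrad was 121 against 384 CPM there, and Id1 36.2 against 306 CPM. Gadd45a (326 against 421 CPM), Gadd45b (966 against 1729), Cited2 (338 against 466) and Nr4a1 (652 against 449) differed by less than 2-fold. No interval was taken for these ratios.

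Over the 14 combinations of gate and library, the genes with the pattern most like Npy1r were Zbtb7c, Ptgir, Zfp791, Micall2 and Cox11, with Pearson correlations of 0.82, 0.82, 0.81, 0.80 and 0.77. Npy1r itself ranged from 0 to 13.1 CPM there, so these values rest on few UMIs.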

How the data were processed

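Cells of 1 control and 1 case library were profiled by 10x single-cell RNA sequencing. The UMI count matrix the authors deposited was written by Cell Ranger 3.1.0 per the file header, with Rnor_6.0 and Seurat named in the submitters' processing notes. The suffix of each barcode was matched to its library through the number of barcodes that the study states before its filter. Cells over 20% mitochondrial UMIs, over 2 SD from the library mean of log10 UMIs or genes, or over 3 robust SD from the line of log10 genes on log10 UMIs were left out. Marker gates needed 50 (smooth muscle) or 100 (fibroblast) marker UMIs per 10000, or UMIs of 3 different markers for rarer types, and cells meeting several were kept apart as mixed or both. Scrublet (scanpy 1.11.5) called 4 barcodes per library, 0.120% and 0.0707%, too few to have worked, so doublets were left in.

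Counts were summed per gate and library (Python 3.11.15, numpy 2.4.6, scipy 1.17.1). With 1 library per group no test between animals exists. Intervals are exact Poisson (CPM), Clopper-Pearson (shares) and conditional binomial (ratios). A gene was called at 2-fold or more, an interval excluding no difference and a mean of at least 20 CPM. On simulated counts this recovered 100% of changed genes in smooth muscle (4851 genes), 100% in fibroblasts (4485) and 96% in the endothelial gate (5138). The planted changes were larger than 2-fold, in genes well above 20 CPM and with counting error only. These shares therefore do not give the power near the limits used or with spread between cells. A count of 0 was read as allowing 3 counts. Shares were compared after thinning to 1000 or 2000 UMIs per cell. Named genes were the members, the listed relatives at 20 CPM or more in a gate of 50 cells or more, the 10 highest ratios among genes with 20 UMIs in the Npy1r cells (1 of them is not reported here), and the 5 genes most like Npy1r and Rgs5. The members and all lists were chosen with earlier results of these data known. Alternatives included TMM scaling (edgeR 4.0.16). For promoters, 7 of 9 members matched RefSeq by symbol.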

Additional observations from a re-analysis of the deposited data

Results flagged for a closer look

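Rgs5 differed in direction between gates, with a log2 ratio of case over control of 1.63 in smooth muscle, on 8 and 28 UMIs, and -1.94 in the endothelial gate. The smooth muscle value was -0.18 without cells of 2 or more Npy1r UMIs. That fall is partly built in, since the members were chosen by their counts in those cells. Abcc9 also differed in direction, with 0.38 in smooth muscle and -0.11 in fibroblasts. The fibroblast value stood beside a median of -0.07 over all genes, and its interval reached 0 with TMM scaling (-0.04, -0.14 to 0.05) and with all deposited barcodes (-0.09, -0.18 to 0.01). Neither difference was tested, since each group is 1 library.

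Abcc9 was also seen in barcodes outside the filter, at 231 CPM in the 726 case barcodes and 127 CPM in the 579 control barcodes.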

How the results depend on the processing

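No paired analysis was possible because each group is 1 library, and for the same reason no library could be left out. The Abcc9 log2 ratio in smooth muscle, 0.38, was 0.51 with TMM scaling, which moved smooth muscle ratios by 0.13, and 0.49 as a mean of each cell's CPM, and the Sncg ratio of 2.71 was 1.92 by that mean. Thinned to 2000 UMIs, with shallower cells left out (4610 case and 1989 control cells kept), 5 case and 0 control cells had 2 or more Npy1r UMIs in place of 14 and 1. With 3 or more Npy1r UMIs as the limit, 10 case cells were left. With a doubled smooth muscle gate, Rgs5 in smooth muscle was 0.644 CPM in case with a log2 ratio of 0.05, and Npy1r 2.86 and C1qtnf1 17.7 CPM. In the Npy1r cells the log2 ratio of Rgs5 was 6.11 against all other kept cells, and with 1 or more Npy1r UMIs those of C1qtnf1 and Rbm24 were 4.17 and 4.86. The endothelial Rgs5 ratio ranged from -2.21 to -1.69 and the fibroblast C1qtnf1 ratio from -0.83 to -0.72 over the alternatives run. In each of them 5 members besides Npy1r were past 2-fold higher in the Npy1r cells, and no called ratio changed sign. Kcnj8, called lower in the 14 cells, was not called in the 9 of the smooth muscle gate. Depth limits Ptgir, Rbm24, Higd1b and control Npy1r, all at few UMIs, and the cell numbers of the endothelial and Schwann gates limit Rgs5 and Sncg. The alternative restricted to the 9 smooth muscle gated Npy1r cells was chosen after seeing the data.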

Other observations

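Ptgir in the case group was partly held by cells of no gate, at 27.3 CPM (18.0 to 39.7) against 0 UMIs in those of the control group. Of these cells, 3 with 8, 7 and 5 Ptgir UMIs, chosen after their values were seen, held 1, 2 and 6 UMIs of Rgs5, 1, 1 and 4 of Sncg and 3, 7 and 3 of Pdgfrb. They held 0 UMIs of Npy1r, Kcnj8 and Abcc9, and 0 of the mural cell genes Cspg4, Cox4i2, Vtn and Steap4. In the same order Notch3 had 0, 2 and 0 UMIs, Mcam and Ndufa4l2 each 0, 1 and 0, and Heyl 3, 0 and 0. Gjc1 had 7, 1 and 2 UMIs in them and Gja4 5, 1 and 0, at depths of 3090, 3405 and 3405 UMIs.

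Smooth muscle gated case cells with few fibroblast marker UMIs (at most 6 per 10000, at least 2000 UMIs, fewer than 2 Npy1r UMIs) numbered 28. All 26 Sncg UMIs in them lay in 1 cell, which had 1 Npy1r UMI, and Rgs5 had 0. The limit was chosen after the values were seen.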
